A study of Homo sapiens with 10 samples.

Results

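The 36 genes described here encode the subunits of the transcription factor NF-kB, their inhibitors and nuclear regulators, the receptors, adaptors and ubiquitin ligases that carry signals to them, and cytokines and other targets. They were chosen by name, with earlier results of these data known, from the 28265 gene symbols counted in human thyroid organoid cells. Of these members, 35 had at least 5 counts in at least 2 libraries and were tested together with 21014 genes in all. IER3, an early response gene of the same pathway, fell short of this minimum.

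The libraries were made from NKX2-1 GFP+ cells that FACS had sorted from organoids of a single engineered human embryonic stem cell line, labelled ESIBIe003-A-6, with 2 libraries at each of days 16, 23, 31, 38 and 45. In every group the cells carried GFP at an allele of NKX2-1 and doxycycline-inducible NKX2-1 and PAX8 transgenes, had been turned towards endoderm with activin A, and had received a pulse of doxycycline. By the schedule of the protocol, cells stayed in basal medium until day 16 and then received 8-br-cAMP, a cAMP analogue, which covers the day 23 libraries. The following change of medium falls shortly before day 31 in that schedule, while the labels of the day 31 libraries still name c-AMP. The medium of the day 31 libraries is therefore uncertain. The day 38 libraries follow hrTSH, a recombinant thyrotropin, with dexamethasone, a glucocorticoid. The day 45 libraries follow the further addition of SB431542, an inhibitor of TGFβ receptor kinases. The paper dates this addition to day 38 in part of its text and to the day before elsewhere. Whether the day 38 libraries had met SB431542 is therefore uncertain, while their labels name TSH and DEX but not SB. The labels name c-AMP already on day 16, and name TSH and SB but not dexamethasone on day 45. Day and medium changed together, so their parts in a difference cannot be told apart, and libraries kept on cAMP to the later days were not analysed here. Several wells were pooled for each library. Counted totals ran from 7247268 to 10333933 per library.

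NF-kB is a family of dimers built from RELA, RELB, REL and the products of NFKB1 and NFKB2. In resting cells the dimers are held back by IkB proteins, and receptors for interleukin-1, TNF or microbial products act through adaptors and ubiquitin ligases on the IkB kinase complex (IKK), which marks IkB for degradation and frees the dimers to enter the nucleus. Many targets are the inhibitors of the pathway itself. Thyroid follicular cells respond to such cytokines, which are known to lower thyroid-specific gene expression, and counts of transcripts do not measure the entry of NF-kB into the nucleus.

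The members were lowest in sum on day 23 and highest on day 45. They made up 0.107 and 0.0981% of the counts on day 16, 0.0815 and 0.0875% on day 23, 0.132 and 0.131% on day 31, 0.137 and 0.139% on day 38, and 0.314 and 0.321% on day 45. The day 45 libraries thus stood above all the others. The day of the highest mean was day 45 for 29 of the 35 tested members (82.9%), against 26.3% of all genes tested. In 22 of the 35 members (62.9%) the day 45 libraries were above all 8 others, which held for 11.4% of all genes. In these sorted but unseparated cells, fewer cells of a type and less RNA per cell cannot be told apart.

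**Figure D1:**
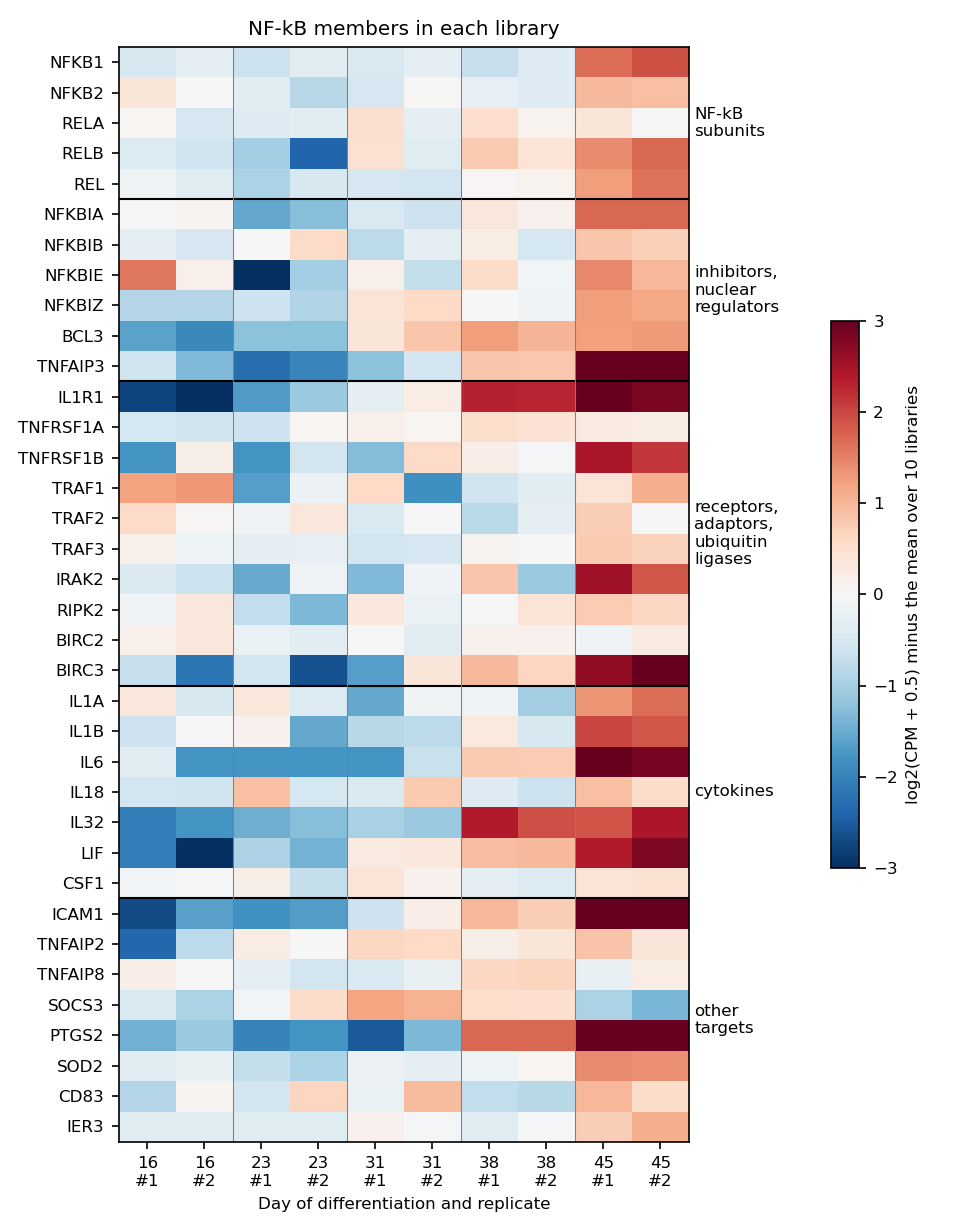
Each row is a member and each column a library, ordered by day (16 to 45) and replicate (#1, #2); colours give log2(CPM + 0.5) minus the mean of that member over the 10 libraries, from -3 (blue) to 3 (red), and black lines part the roles. The columns of day 45 are red for most members, while RELA, BIRC2 and TNFRSF1A are pale throughout and SOCS3 is blue there.

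A change was called where the edgeR adjusted p-value was below 0.05, and values after ± are standard errors (SE) of log2 fold changes. From day 16 to day 23, 3 members rose and 8 fell, where 5.6% of all genes were called higher and 5.33% lower. From day 23 to day 31, 9 were called, all of them higher, against backgrounds of 1.58% higher and 0.666% lower. From day 31 to day 38, 9 rose and 2 fell, against 8.8% and 6.23%. From day 38 to day 45, 17 rose and 1 fell, where 4.85% of all genes were called higher and 6.35% lower. The median log2 fold change of the tested members at these steps was -0.17, 0.52, 0.46 and 1.26, and that of all genes lay between -0.02 and 0.00. With library sizes without TMM factors, the members' median on day 38 was 0.20 and that of all genes -0.20. The steps share libraries and are not independent of each other.

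Over the whole course, from day 16 to day 45, 21 members were called, all of them higher, where 12.9% of all genes were called higher and 11.7% lower, and the median was 1.71. Between the pooled days 23 and 31 and the pooled days 38 and 45, 24 rose and 1 fell, against 16.1% and 13.7%, with a median of 1.07. Any difference among the days was called for 29 of 35 members and for 36.3% of all genes.

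With 2 libraries per day, each step leaned on single libraries. For day 23 against day 16, 8 and 9 members were called without replicate 1 or 2 of day 16, and 7 without either replicate of day 23, and NFKBIA, TNFAIP3 and IL1R1 were called in all 4 of these fits. For day 31 against day 23, 5 and 8 were called without replicate 1 or 2 of day 23 and 6 and 4 without those of day 31, with NFKBIA, NFKBIZ and BCL3 in all. For day 38 against day 31, 8 and 9 were called without those of day 31 and 7 and 6 without those of day 38, with NFKBIA, TNFAIP3, IL1R1, PTGS2 and IL32 in all. For day 45 against day 38, 11 and 10 were called without those of day 38 and 10 and 12 without those of day 45, and NFKB1, NFKB2, REL, NFKBIA, NFKBIZ, TNFAIP3, ICAM1, PTGS2, SOD2 and SOCS3 were called in all 4 fits. The other members called at a step were lost in at least 1 of its fits, in which a day was left with a single library. With only the libraries compared, BIRC2, IL1R1, NFKB2, SOD2, TNFAIP2 and TNFAIP3 lost their calls for day 23, ICAM1, IL1R1, RIPK2, SOD2 and TNFAIP3 theirs for day 31, and IL6 its call for day 38. With library sizes without TMM factors, BIRC2 and NFKB2 lost theirs for day 23 and IL6, REL and TNFAIP8 theirs for day 38.

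**Figure D2:**
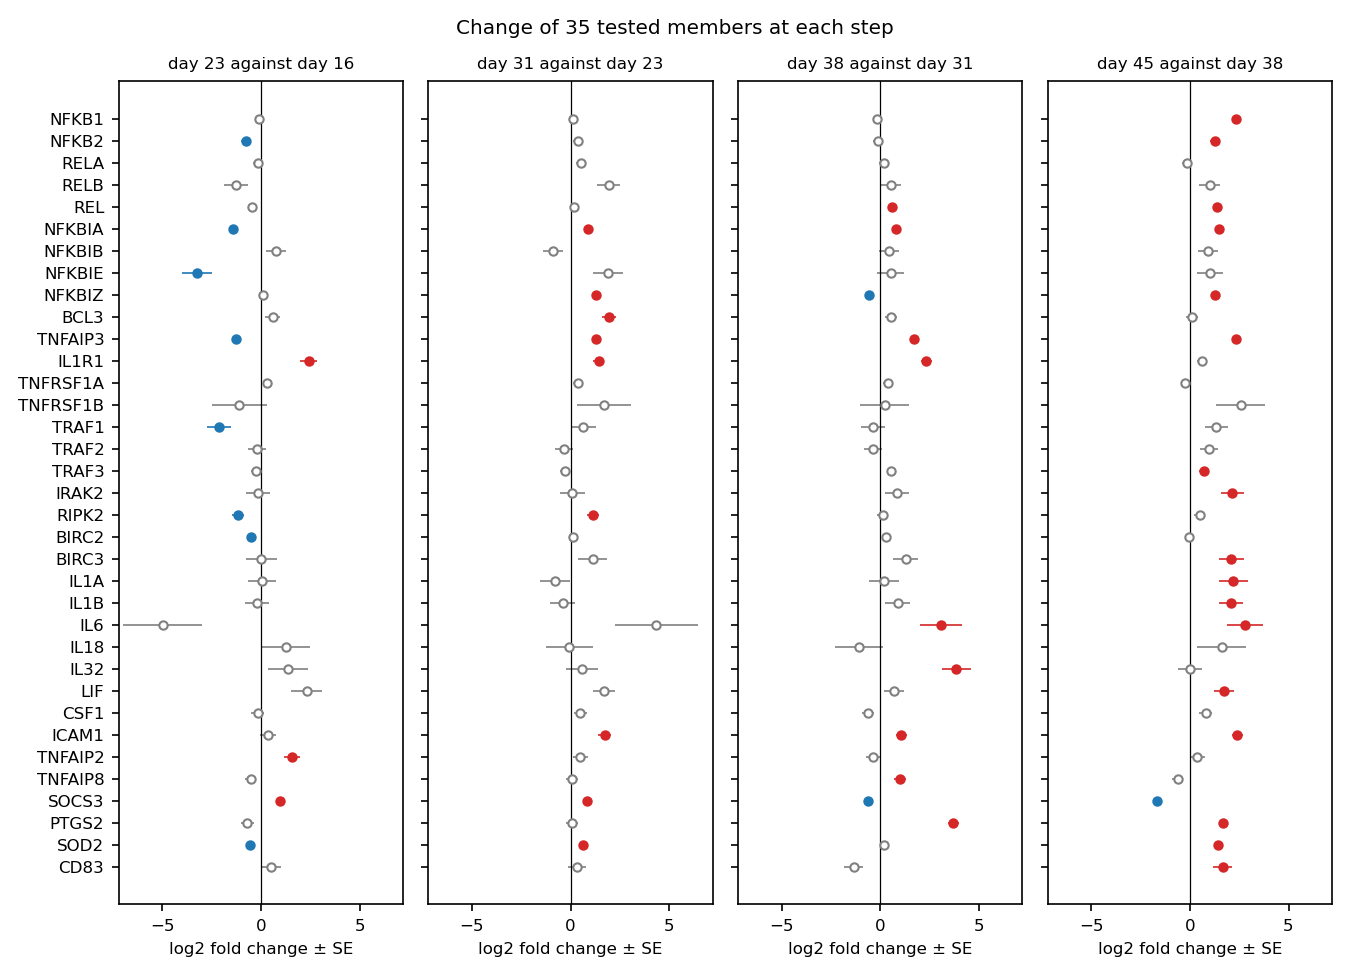
Points give the log2 fold change of each of the 35 tested members at 4 steps, with bars for the SE; filled red points were called higher, filled blue points lower (edgeR, adjusted p below 0.05) and open grey points were not called. The last panel holds 17 red points and 1 blue point, SOCS3.

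The promoters of the members were searched for the motif that NF-kB binds. Known NF-kB targets were among the genes chosen, so a high share of matches follows in part from that choice and is no independent feature of the members. Windows from 250 bases before to 50 after the annotated start were taken from RefSeq (GRCh38.p14) for 29 members, 50 windows in all, and searched on both strands for the NF-kB consensus, a motif of 10 bases. It was found in 15 windows (30%), against 11.3% of all 35116 windows and 12.9% of the windows of genes tested. By gene, 13 of 29 members (44.8%) held a match, against 13.3% of all genes with a window. The members had 50 windows for 29 genes, and all genes 35116 windows for 27305 genes. Shares by gene also depend on this number of windows. The cAMP response element TGACGTCA was found in 3 windows (6.0%), of BIRC2 and IL32, against 1.85% of all windows. Of the windows of genes tested, 2.35% held this element. A match is a description of letters and does not show binding.

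Of the 16 searched members called higher on day 45, 10 held a match. IRAK2, IL1A, IL1B, ICAM1, PTGS2 and SOD2 held none. Stretches are shown for the subunits, inhibitors and nuclear regulators that rose on day 45 and for IL6, as examples of promoters with a match. Where a gene had several annotated starts, the window with the most matches was used, and the stretch surrounds the match nearest to the start of that window. Capitals mark all bases of a consensus match in either direction, also of a neighbouring or cut match. Coordinates are GRCh38 and the strand is that of the gene.
NFKB1 (chr4:102501290-102501339, plus strand): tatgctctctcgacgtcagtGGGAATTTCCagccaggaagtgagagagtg
NFKB2 (chr10:102394480-102394529, plus strand): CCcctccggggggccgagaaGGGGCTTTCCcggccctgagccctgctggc
REL (chr2:60881508-60881557, plus strand): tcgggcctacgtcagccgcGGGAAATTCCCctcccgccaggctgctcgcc
NFKBIA (chr14:35404801-35404850, minus strand): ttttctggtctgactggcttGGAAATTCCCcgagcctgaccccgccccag
NFKBIZ (chr3:101849264-101849304, plus strand): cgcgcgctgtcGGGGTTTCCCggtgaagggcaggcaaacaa
TNFAIP3 (chr6:137867184-137867233, plus strand): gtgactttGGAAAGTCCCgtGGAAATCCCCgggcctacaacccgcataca
IL6 (chr7:22727107-22727156, plus strand): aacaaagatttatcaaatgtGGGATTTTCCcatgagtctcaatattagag
Counted from the start of the window used, the match began at base -49 in NFKB1, -78 in NFKB2, -81 in NFKBIA, -239 in NFKBIZ and -73 in IL6. Another start of NFKB2 had a match that began at base -21, and another of NFKBIZ had one at -223. REL held overlapping matches on the opposite strands, and TNFAIP3 held 2 matches side by side. NFKBIE, RELB, RIPK2, IL18, LIF, CSF1 and IER3 were not searched.

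Among the subunits, NFKB1, REL and NFKB2 rose from day 38 to day 45, while RELA and RELB were not called. NFKB1 encodes a precursor that is cut to a DNA-binding subunit. Its values in CPM, the counts scaled to the size of the library, were 38.3 and 43.1 on day 16, 33.7 and 42.3 on day 23, 38.6 and 43.3 on day 31, 32.9 and 40.9 on day 38 and 170.4 and 203 on day 45. The 8 earlier libraries thus lay within a narrow range, and the day 45 libraries stood apart (log2 fold change against day 38 2.34 ± 0.19, edgeR adjusted p = 7.11e-11). REL, a subunit best known from lymphocytes, measured 157 and 135 CPM on day 16, 89.3 and 125 on day 23, 123 and 118 on day 31, 178 and 188 on day 38 and 417 and 539 on day 45. It rose at the last 2 steps, by 0.60 ± 0.15 and then 1.39 ± 0.15 on a log2 scale (adjusted p by edgeR = 0.00445 and 2.54e-08), with no overlap between days 31, 38 and 45. The step on day 38 was 0.39 and not called with library sizes without TMM factors.

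NFKB2, the precursor of the subunit of the non-canonical branch, measured 44.6 and 35.3 CPM on day 16, 27.6 and 19.4 on day 23, 24.6 and 35.6 on day 31, 29.5 and 26.5 on day 38 and 68.7 and 64.98 on day 45. It fell in the first week and rose in the last (1.25 ± 0.25, edgeR adjusted p = 4.63e-04). The fall on day 23 (-0.76 ± 0.25, adjusted p = 0.0418) was close to the threshold. RELB, the usual partner of NFKB2, had 10.3 and 7.68 CPM on day 38 and 15.97 and 20.1 on day 45, and was called over the whole course (day 45 against day 16, 2.21 ± 0.56) but not at any weekly step. With no low-count filter or with a replicate block RELB was called on day 31, and with only the libraries compared on day 45. RELA, the main activating subunit, measured 42.9 and 28.8 CPM on day 16, 31.3 and 32.4 on day 23, 57.5 and 33.6 on day 31, 58.9 and 44.4 on day 38 and 53.4 and 40.5 on day 45. Its day 45 libraries overlapped those of days 16, 31 and 38 and lay above those of day 23, and it was called in no comparison (day 45 against day 38, -0.14 ± 0.25, edgeR adjusted p = 0.818). The CPM of REL divided by that of RELA was 3.67 and 4.701 on day 16, 2.86 and 3.86 on day 23, 2.13 and 3.49 on day 31, 3.02 and 4.23 on day 38 and 7.81 and 13.3 on day 45.

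**Figure D3:**
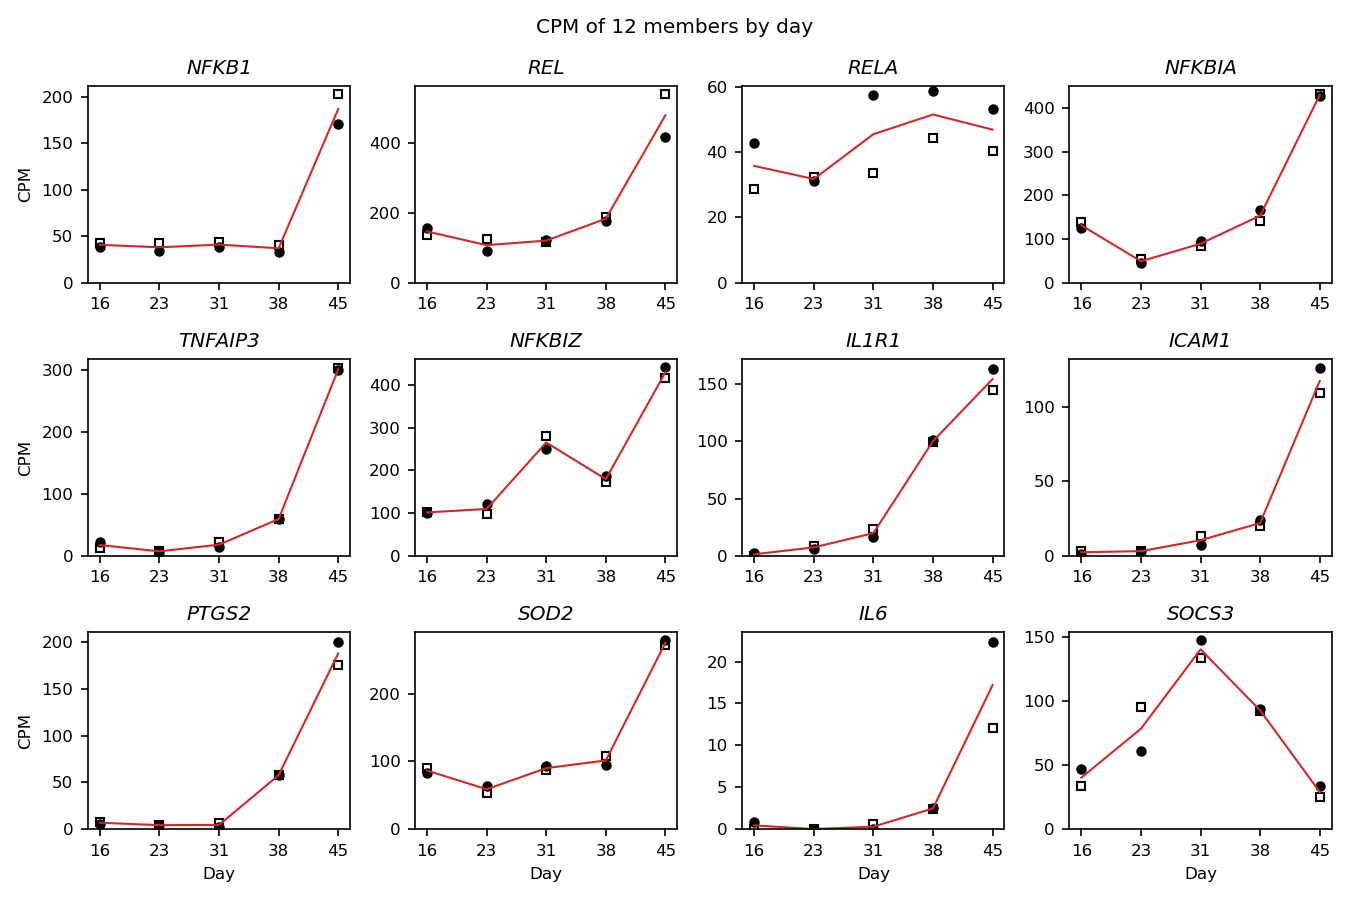
CPM (y axes, linear and starting at 0, scaled per gene) of 12 members by day (x axes, evenly spaced); filled circles and open squares are replicates 1 and 2, and red lines join the day means. NFKB1, TNFAIP3, ICAM1 and IL6 are far above their earlier values on day 45, IL1R1 and PTGS2 already climb on day 38, RELA was called at no step and SOCS3 peaks on day 31.

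Of the 6 inhibitors and nuclear regulators, NFKBIA, TNFAIP3 and NFKBIE fell on day 23, and NFKBIA, TNFAIP3 and NFKBIZ rose on day 45. NFKBIA encodes IkBα, the inhibitor that NF-kB itself induces. It measured 124 and 138 CPM on day 16, 44.7 and 53.3 on day 23, 94.3 and 84.1 on day 31, 165 and 141 on day 38 and 428 and 431 on day 45. None of these days overlapped. NFKBIA fell by 1.42 on the log2 scale in the first week and rose at each later step, by 0.87 ± 0.15, 0.78 ± 0.14 and 1.49 ± 0.14 (edgeR adjusted p = 8.79e-09, 3.08e-04, 1.17e-04 and 1.59e-09). Relative to RELA, its CPM was 2.899 and 4.79 on day 16, 1.43 and 1.65 on day 23, 1.64 and 2.502 on day 31, 2.81 and 3.19 on day 38 and 8.02 and 10.6 on day 45.

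TNFAIP3 encodes A20, a ubiquitin-editing enzyme that ends signalling to IKK. It measured 21.9 and 12.9 CPM on day 16, 6.54 and 8.12 on day 23, 14.02 and 22.3 on day 31, 60.1 and 59.03 on day 38 and 301 and 303 on day 45. The fall of the first week (-1.25 ± 0.24) was followed by 3 rises, of 1.30 ± 0.24, 1.72 ± 0.21 and 2.34 ± 0.20 (edgeR adjusted p = 9.72e-04, 1.75e-07 and 1.96e-10), and day 45 exceeded day 16 by 4.11 ± 0.23. With only the libraries compared, the changes on days 23 and 31 were not called. WAKMAR2, which lies on the opposite strand and shares 95 exon bases with TNFAIP3, had at most 118 counts in a library, against 2070 and 2777 for TNFAIP3 on day 45. The strand setting of the counting is not given in the sources used here.

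NFKBIZ, a nuclear IkB protein that helps NF-kB to induce further genes, measured 101 and 102 CPM on day 16, 121 and 99.1 on day 23, 249.5 and 281 on day 31, 187 and 172 on day 38 and 443 and 416 on day 45. It rose on day 31 (1.27 ± 0.14), fell on day 38 (-0.56 ± 0.13) and rose again on day 45 (1.26 ± 0.14). BCL3, another nuclear IkB protein, measured 5.098 and 5.14 CPM on day 23, 16.4 and 23.04 on day 31, 31.1 and 26.3 on day 38 and 30.5 and 31.1 on day 45, so that its rise came on day 31 (1.94 ± 0.35, edgeR adjusted p = 7.07e-04) and the last step was not called (0.10 ± 0.32). NFKBIE, a further IkB protein, had 119 and 43 counts on day 16 and 1 and 18 on day 23, a fall of 3.22 on the log2 scale (SE 0.75, edgeR adjusted p = 0.00328). The change was -2.26 without replicate 1 of day 16, and without replicate 2 of day 23 that day rested on 1 count. The call was lost without replicate 1 of day 16 or of day 23. NFKBIB was called in no comparison and had 40 to 114 counts per library.

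Levels were compared between genes as CPM per kilobase of the canonical transcript. The order depends on the lengths used, such as 14167 bases for SOD2 and 11108 for REL. SOD2, at 275 CPM on day 45, thus stood at 19.4 on this scale. On day 45 the members with the highest levels on this scale were NFKBIA (276), NFKBIZ (109.5), TNFAIP3 (64.7), NFKB1 (46.04), REL (43.1), PTGS2 (41.7) and ICAM1 (39.5). From NFKB1 to ICAM1, the ranges of the day 45 libraries overlapped between neighbours in this order. On day 16 NFKBIA (84.2) also led, followed by BIRC2 (37.6) and NFKBIZ (25.9), and TNFAIP3 stood at 3.74.

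Of the 10 receptors, adaptors and ubiquitin ligases, IL1R1 had the largest change over the course and 3 others rose on day 45. IL1R1, the signalling receptor for interleukin-1, had 20 and 2 counts on day 16, and then measured 5.76 and 9.03 CPM on day 23, 16.2 and 23.5 on day 31, 101 and 99.4 on day 38 and 163 and 145 on day 45. It rose on day 23 (2.41 ± 0.42), day 31 (1.42 ± 0.30) and day 38 (2.34 ± 0.27, edgeR adjusted p = 3.69e-08), and the last step was 0.62 ± 0.25 (adjusted p = 0.111). Its largest steps thus came before day 45, and no days overlapped. The step on day 45 was called with no low-count filter, with a replicate block and with only the libraries compared. The step on day 23 was 1.54 without replicate 2 of day 16, rested on 2 counts of day 16 without replicate 1, and was not called with only the libraries compared. That on day 31 was not called by DESeq2, with only the libraries compared, or without replicate 1 of day 23 or replicate 2 of day 31. IL1RAP, its co-receptor and not one of the 36 members, measured 0.634 and 2.83 CPM on day 16, 25.5 and 30.02 on day 31 and 47.5 and 39.97 on day 45, and was called higher on days 23 and 31.

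IRAK2, a kinase of the interleukin-1 and Toll-like receptor complex, measured 10.5 and 2.33 CPM on day 38 and 34.99 and 21.7 on day 45 (2.14 ± 0.58, edgeR adjusted p = 0.0117). BIRC3, a ubiquitin ligase that NF-kB induces, measured 8.32 and 6.52 CPM on day 38 and 27.7 and 36.04 on day 45 (2.10 ± 0.63, adjusted p = 0.023), while its close relative BIRC2 measured 131 and 131 CPM on day 38 and 109 and 146 on day 45 (-0.04 ± 0.16, adjusted p = 0.929). TRAF3, an adaptor that restrains the non-canonical branch, measured 34.99 and 33.1 CPM on day 38 and 57.9 and 54.2 on day 45 (0.72 ± 0.23, adjusted p = 0.0408). The day 45 libraries of IRAK2, BIRC3 and TRAF3 were above all 8 others. BIRC3 and TRAF3 were called in 0 of the 4 fits that left out a library compared, and IRAK2 in 2, with its log2 fold change at 3.60 without replicate 1 of day 38 and 1.43 without replicate 2.

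TRAF1, an adaptor of TNF receptors and a known NF-kB target, measured 16.1 and 16.99 CPM on day 16, 1.77 and 5.83 on day 23, 10.3 and 1.51 on day 31, 4.21 and 5.12 on day 38 and 9.001 and 14.7 on day 45, and fell in the first week (-2.12 ± 0.62, edgeR adjusted p = 0.0197). This change ran from -3.21 without replicate 2 of day 23 to -1.50 without replicate 1, and the call was lost without replicate 1 of day 23 or either replicate of day 16. RIPK2, a kinase of the NOD receptors, fell on day 23 (-1.17 ± 0.29) and rose on day 31 (1.12 ± 0.29). TNFRSF1A, the receptor for TNF on most cells, measured 31.8 and 30.5 CPM on day 16, 66.96 and 62.3 on day 38 and 55.7 and 54.3 on day 45. It was called higher over the whole course (0.82 ± 0.22, adjusted p = 0.00534) but at no weekly step. TNFRSF1B, the receptor more typical of immune and endothelial cells, had at most 18 counts before day 45 and then 62 and 65 (2.57 ± 1.26, adjusted p = 0.219). TRAF2 was called in no comparison.

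Of the 7 cytokines, IL6, IL1A, IL1B and LIF rose on day 45, IL32 had risen a week earlier, and IL18 and CSF1 were called in no comparison. IL6, a cytokine of the acute response, had 7 and 0 counts on day 16, 0 and 0 on day 23, 0 and 5 on day 31, 23 and 21 on day 38 and 154 and 110 on day 45. The rises on day 38 (3.08 ± 1.07, edgeR adjusted p = 0.0478) and day 45 (2.79 ± 0.89, adjusted p = 0.037) went with low counts, and neither was called by DESeq2. The first of these was 2.06 without replicate 1 of day 31, and without replicate 2 that day was at 0 counts. Its call was also lost with library sizes without TMM factors, with upper-quartile factors, with filterByExpr, with only the libraries compared and without either library of day 38 or of day 45 or replicate 1 of day 31. IL1B, a main ligand of IL1R1, had 53 and 27 counts on day 38 and 138 and 165 on day 45 (2.09 ± 0.61, adjusted p = 0.0188), and IL1A, the other, had 31 and 13 counts on day 38 and 68 and 116 on day 45 (2.20 ± 0.74, adjusted p = 0.0469).

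LIF, a cytokine that acts through LIFR and IL6ST, had 5 and 0 counts on day 16, 18 and 11 on day 23, 51 and 46 on day 31, 79 and 75 on day 38 and 166 and 298 on day 45. Its level was thus higher at each later day, and the last step was called (1.71 ± 0.51, edgeR adjusted p = 0.0228). IL32, a cytokine induced by TNF in epithelium, had 8 and 6 counts on day 31, 121 and 81 on day 38 and 63 and 123 on day 45, a rise on day 38 (3.86 ± 0.74, adjusted p = 2.31e-04) with no further step (0.01 ± 0.62). IL6, IL1A, IL1B and LIF were called on day 45 in 0 of the 4 fits that left out a library of day 38 or 45, and for each of them the day 45 libraries were above the 8 others. The change of IL1A ran from 1.75 to 2.89 in these fits, the highest without replicate 1 of day 38. CSF1, a growth factor of macrophages, measured 10.98 to 25.4 CPM, and IL18 had 7 to 30 counts.

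Among the other targets, ICAM1, PTGS2, SOD2 and CD83 rose on day 45 and SOCS3 fell. ICAM1, an adhesion molecule for leukocytes, measured 1.39 and 3.45 CPM on day 16, 2.99 and 3.32 on day 23, 7.47 and 13.5 on day 31, 24.1 and 19.9 on day 38 and 126 and 109 on day 45, with rises of 1.72 ± 0.35, 1.08 ± 0.30 and 2.41 ± 0.29 (edgeR adjusted p = 0.00258, 0.0111 and 2.18e-07). PTGS2, the inducible enzyme of prostaglandin synthesis, measured 5.96 and 7.63 CPM on day 16, 3.88 and 4.57 on day 23, 2.56 and 6.40 on day 31, 58.0 and 57.5 on day 38 and 201 and 176 on day 45. Its largest step was on day 38 (3.71 ± 0.28, adjusted p = 1.98e-12), followed by 1.70 ± 0.23 on day 45. The step on day 38 was called in every fit that left out a library, and was 4.48 without replicate 2 of day 31. PACERR, on the opposite strand of PTGS2, had at most 12 counts.

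SOD2, the manganese superoxide dismutase of mitochondria, measured 53.7 to 109 CPM up to day 38 and 279 and 272 on day 45 (1.44 ± 0.15, edgeR adjusted p = 9.64e-09), after a fall on day 23 (-0.55 ± 0.15) and a rise on day 31 (0.61 ± 0.15). It shares 437 exon bases with WTAP on the opposite strand, and counting without strand would not tell their reads apart there. WTAP had 905 and 998 counts on day 38 and 947 and 1681 on day 45. CD83, a surface protein of activated immune cells that other cells also make, measured 5.62 and 5.24 CPM on day 38 and 20.03 and 14.6 on day 45 (1.67 ± 0.49, adjusted p = 0.021). Its earlier libraries reached 19.2 CPM, so its day 45 did not stand above all other days.

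SOCS3, the feedback inhibitor of cytokine receptors that signal through JAK and STAT, took another course. It measured 47.04 and 33.4 CPM on day 16, 61.3 and 95.6 on day 23, 147 and 133 on day 31, 93.5 and 91.9 on day 38 and 33.4 and 24.7 on day 45. SOCS3 rose on days 23 and 31 (0.96 ± 0.20 and 0.84 ± 0.20) and fell on day 38 (-0.60 ± 0.20, edgeR adjusted p = 0.0347). The call of that fall was lost when any library of day 31 or 38 was left out. SOCS3 fell again on day 45 (-1.68 ± 0.21, edgeR adjusted p = 3.67e-07), the only member called lower at that step. TNFAIP2 rose in the first week (1.57 ± 0.41, which was 2.70 without replicate 2 of day 16 and 0.96, not called, without replicate 1) and TNFAIP8 on day 38 (1.00 ± 0.29), and neither was called on day 45. IER3 had 0 and 0 counts on day 16, 2 and 1 on day 31 and 4 and 8 on day 45. Of its 48 stretches of 50 bases, 91.7% were repeated exactly on alternate contigs of GRCh38, so that an index that holds these contigs would place such reads more than once. The same held for 90.9% of TNF and 89.1% of LTA, both at 0 counts in all libraries, and at most 7.43% for the tested members. The part of these contigs in the counts was not tested.

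The rest of the pathway was described with lists of other genes. Of 17 kinases and adaptors that lead to IKK, 2 were called on day 45, both higher (4.85% of all genes). The median log2 fold change of the 17 was 0.05. Their summed CPM was 807 and 772 on day 38 and 768 and 813 on day 45. The 2 that rose were CHUK, the alpha kinase of the complex (0.73 ± 0.25, edgeR adjusted p = 0.0474), and RIPK1 (1.15 ± 0.24, adjusted p = 7.43e-04), a kinase of the TNF receptor complex that had been called lower on day 38 (-0.72 ± 0.24). On day 38, 1 gene of this list was called higher (8.8% of all genes) and 2 lower (6.23%). IKBKB, the beta kinase, measured 32.5 and 32.7 CPM on day 38 and 22.6 and 28.4 on day 45 (-0.35 ± 0.25, adjusted p = 0.444). The sums of the members, by contrast, went from 309 and 307 to 726 and 868 for the subunits and from 459 and 409 to 1229.8 and 1204 for the inhibitors and nuclear regulators. For the members that are receptors, adaptors and ubiquitin ligases the rise was smaller, from 389 and 382 to 527 and 528.

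Of 15 tested genes of linear ubiquitin and negative regulation, 2 were called on day 45, both higher (4.85% of all genes). Both had been called lower on day 23 (5.33% of all genes). NFKBID, a nuclear IkB protein, measured 6.804 and 8.50 CPM on day 38 and 37.9 and 40.4 on day 45 (2.35 ± 0.37, edgeR adjusted p = 1.95e-05). ZC3H12A, a nuclease that degrades cytokine transcripts, measured 9.505 and 11.1 CPM on day 38 and 61.7 and 48.2 on day 45 (2.42 ± 0.35, adjusted p = 4.29e-06). The deubiquitinases CYLD (0.58 ± 0.20, adjusted p = 0.0572) and OTULIN (-0.06 ± 0.21, adjusted p = 0.922) were not called.

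Of 23 tested receptors, 5 were called on day 45, all higher (4.85% of all genes). They were TNFRSF12A, the TWEAK receptor (2.26 ± 0.41, edgeR adjusted p = 1.33e-04), LIFR (0.59 ± 0.14), IL6ST, the shared subunit for LIF and IL6 (0.42 ± 0.13), CSF1R and CD14, the last 2 of which had been called lower on day 38. Of the 18 ligands and decoys, 11 were tested. On day 38, IL33 was called higher (8.8% of all genes) and TNFSF11 lower (6.23%). TNF, LTA, IL36B and CSF2 had 0 counts in all 10 libraries. IL33, an alarmin of epithelial and stromal cells, had 14 and 4 counts on day 31 and 106 and 102 on day 38 (edgeR adjusted p = 0.00323).

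Among the chemokine targets, which recruit neutrophils and other leukocytes, rises were called from day 23 on. Of 8 tested, 2 rose and 2 fell on day 23, 4 rose on day 31 (1.58% of all genes), 6 on day 38 (8.8%) and 6 on day 45 (4.85%), and 8 rose over the whole course. Their median log2 fold change was 2.69 on day 31, or 1.72 with the 2 genes at or near 0 counts on day 23 set to their lower bound from a floor of 3 counts per library, 3.39 on day 38 and 1.91 on day 45. Their summed CPM was 45.9 and 39.3 on day 16, 34.2 and 24.6 on day 23, 109 and 84.1 on day 31, 509 and 453 on day 38 and 1804 and 1731 on day 45. CXCL8 measured 6.24 and 5.24 CPM on day 31, 121 and 82.4 on day 38 and 638 and 543 on day 45, with steps of 4.14 ± 0.22 and 2.54 ± 0.18 (edgeR adjusted p = 2.44e-16 and 2.81e-12). CXCL2 measured 91.2 and 64.6 CPM on day 31, 275 and 263 on day 38 and 817 and 835 on day 45. CCL2 rose on day 38 (3.99 ± 0.35) and was not called on day 45 (0.58 ± 0.29), and CXCL10, a target typical of interferon, had at most 1 count per library.

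Markers of other programmes moved at the same steps and are given as measured facts, and their part in the change of the members was not tested. Of all genes, 8.8% were called higher and 6.23% lower on day 38, and 4.85% and 6.35% on day 45. On day 38 the glucocorticoid targets FKBP5 (2.02 ± 0.23), TSC22D3 (1.13 ± 0.17) and MT2A (3.10 ± 0.61) rose (edgeR adjusted p = 3.98e-08, 4.90e-06 and 2.86e-04), 5 of 10 genes of that list having been called higher and 1 lower. On day 45 their list had 3 called higher and 1 lower. Of 11 immediate early genes, which also answer to cell dissociation, 3 rose and 4 fell on day 45, and their summed CPM was 6439 and 5914 on day 38 and 4460.2 and 4042 on day 45. FOS fell by 2.02 on a log2 scale (adjusted p by edgeR = 5.72e-15), EGR1 by 0.98 and JUN by 0.47, while ATF3 (0.98 ± 0.14), NR4A1 (1.01 ± 0.16) and FOSB (0.81 ± 0.14) rose.

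Thyroid markers were present in the sorted cells. TG, the thyroglobulin gene, measured 199.9 and 212 CPM on day 31, 5547 and 4875 on day 38 and 7964 and 7525 on day 45, and PAX8 measured 501 and 527 CPM on day 38 and 536 and 500.0 on day 45. On day 45, 17 of the 35 tested members were called higher, against 4.85% of all genes. Of the 8 thyroid markers, 1 was called higher and 3 lower, against 4.85% and 6.35% of all genes. At that step NKX2-1 (154 and 133 CPM on day 38, 58.1 and 66.7 on day 45), HHEX and FOXE1 fell by 1.20, 0.86 and 0.82 on a log2 scale (adjusted p by edgeR = 6.30e-07, 3.70e-05 and 4.01e-05), while TG rose by 0.57 ± 0.10.

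Of 12 immune cell markers, 9 were tested and 4 rose on day 45 (4.85% of all genes). Their summed CPM was 30.6 and 15.6 on day 16, 7.76 and 10.98 on day 23, 20.5 and 18.4 on day 31, 18.4 and 9.78 on day 38 and 84.9 and 69.5 on day 45, with CD68 the most abundant (36.4 and 35.9 CPM on day 45). ITGAM had 2 and 1 counts on day 38 and 162 and 88 on day 45, CD14 had 10 and 10 on day 16, 28 and 17 on day 31, 0 and 0 on day 38 and 22 and 36 on day 45, and CSF1R had 32 and 14, 30 and 25, 2 and 5 and 39 and 70 on the same days. Both had been called lower on day 38, and neither was called on day 45 against day 16. PTPRC, the gene of CD45 that defines leukocytes, had 5 and 5 counts on day 38 and 4 and 0 on day 45, TYROBP had 4 and 0 and CD3E 0 on day 45. LYZ, the lysozyme gene of myeloid and some epithelial cells, had 0 and 0 counts on day 16, 28 and 22 on day 38 and 56 and 95 on day 45, and was called higher over the whole course. CD68, ITGAM and LYZ were thus highest on day 45, like most members, while PTPRC, TYROBP and CD3E had at most 4 counts in a library there.

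Summed CPM of the fibroblast markers was 1185 and 1463 on day 31, 3236 and 3399 on day 38 and 3559.5 and 2869 on day 45, with COL3A1 the most abundant, and that of the cardiovascular markers was 37.4 and 27.3 on day 31, 189 and 193 on day 38 and 175 and 182 on day 45, with MYH6 the most abundant. Both sums thus stepped up on day 38 and not on day 45, although 3 fibroblast markers, LUM, PDGFRA and DCN, were called higher on day 45. The goblet cell markers, led by MUC5B, measured 50.01 and 36.6 on day 38 and 105 and 56.6 on day 45, the airway basal cell markers, led by KRT5, went from 28.9 and 26.2 to 50.8 and 42.8, and the endothelial markers, led by ESAM, from 38.1 and 43.3 to 75.1 and 37.7. KRT5 was called higher on days 31 and 45, and of the goblet markers 1 was called higher and 1 lower.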

How the data were processed

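Paired-end reads of low-input libraries were trimmed (Trimmomatic), aligned to GRCh38 (HISAT2) and counted per gene (HTSeq, GRCh38.p13 annotation) by the authors, who deposited the counts of 28265 gene symbols as they were. Tool versions and the strand setting are not given in the sources used here.

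CPM with TMM factors and all tests were computed from these counts in R 4.3.3 with edgeR 4.0.16 (glmQLFit, glmQLFTest). All 10 libraries were fitted with 1 mean per day, leaving 5 residual degrees of freedom, for the 21014 genes that reached 5 counts in 2 or more libraries. P-values were adjusted over all of them (Benjamini-Hochberg) and called below 0.05. The SE was taken from the F statistic of each log2 fold change and is approximate. Replicates of a day differed by more than sampling noise (chi-square per degree of freedom 8.84 to 14.5). Whether they came from separate differentiations is not stated in the labels, so p-values measure the spread between these libraries. A floor of 3 counts covers counting error only.

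Members and lists were chosen with earlier results of these data known. All members are named, with values for those called or with the largest changes; genes of the other lists were named from those called and, as later choices, a few not called. Positions came from GENCODE 44 on GRCh38 and promoters from RefSeq (GRCh38.p14). The procedure was tested on simulated data. The alternatives were DESeq2 1.42.0, other size factors, other filters, only the libraries compared and a replicate block. Further ones were a minimum log2 fold change of 1 and leaving out each library. For promoters, 1 mismatch was allowed outside the opening run of G of the consensus.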

Additional observations from a re-analysis of the deposited data

How the results depend on the processing

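With only the libraries compared, 5 members were called for day 23 against 16 and 4 for day 31 against 23, in place of 11 and 9, and 11 and 23 for the later steps, in place of 11 and 18; the cause was not tested. With a log2 fold change of at least 1 as a further condition, 7 were called for day 23 against 16 and 6 for day 38 against 31. When each library in turn was left out, the counts ran from 7 to 11 for day 23 against 16, 4 to 9 for day 31 against 23, 6 to 12 for day 38 against 31 and 10 to 19 for day 45 against 38, while those for day 45 against 16, for the later against the earlier days and for any day stayed within 1.5 times their main values. DESeq2, other size factors and other filters kept every count within 1.5 times. No log2 fold change called for a member changed its sign. The genes called overall moved alike: with the further condition on the fold, 1183, 282, 1691 and 1202 were called at the 4 steps in place of 2296, 473, 3160 and 2353, 3252 in place of 5175 over the whole course and 2822 in place of 6274 between the later and the earlier days, and leaving out each library gave 1350 to 2383, 206 to 646, 1764 to 3614 and 1166 to 2816 at the steps. Without TMM factors the median of all genes at day 38 against 31 moved to -0.20 and that of the members to 0.20. Replicate numbers did not pair the libraries (correlations of deviations between days from -0.10 to 0.13 over 11265 genes), and with the replicate block 13, 10, 12 and 19 members were called at the 4 steps. With 1 mismatch allowed in the NF-kB consensus outside its opening run of G, 74.0% of the members' windows held a match. The share was 59.5% of all windows and 65.6% of the windows of genes tested. IL6, IL1A, IL18, TNFRSF1B and IER3 had at most 43 counts per library before day 45, which limits what their values can show. For IER3, the part of alternate contigs in its low counts was not tested.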
